A study of Homo sapiens with 7 samples.

Results

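The genes described here are 40 genes of cholesterol and fatty acid synthesis, chosen by function: 21 of the sterol branch and 19 of the fatty acid branch, out of 19974 protein-coding genes on chromosomes 1 to 22 and X. A peak belongs to a gene when its summit lies inside the gene's span or within 50 kb of it, an area called the window. Chromatin bound by PPARα had been precipitated and sequenced in HepG2 cells, a human line derived from a hepatocellular carcinoma, and 6 of the 7 samples entered with a list of called peaks, while the sample without antibody was not analysed here. All 6 received a PPARα expression vector and, from 48 h after transfection, the PPARα agonist WY14643 (the labels also write Wy13643) at 10 µM for 2 h. For the group called PPARα the labels name no other vector or agonist. The PPARα+ERα group also carried a vector for estrogen receptor α and was first given its selective agonist PPT at 10 nM for 45 min. The PPARα+ERβ group carried a vector for estrogen receptor β and was first given its selective agonist DPN at 10 nM for 45 min. Each group has 2 libraries of this 1 cell line, all with receptors supplied by transfection, and no group lacks the PPARα vector or its agonist. The labels do not say that the libraries came from separate cultures, so the spread between them may be technical.

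Cholesterol is built from acetyl-CoA through mevalonate, isoprenoid and squalene steps, and fatty acids from the same acetyl-CoA by carboxylation, chain building, elongation and desaturation. In liver, both branches are driven by the sterol regulatory element binding proteins, the products of SREBF1 and SREBF2, which SCAP escorts out of the endoplasmic reticulum and the INSIG proteins hold back when sterols are plentiful. MLXIPL encodes ChREBP, which raises lipogenic genes in response to glucose, and MLXIP encodes its relative MondoA. PPARα is best known for the opposite direction of lipid flow, fatty acid oxidation in the fasted liver. RNA was not measured, so hepatocyte markers could not be read, and a peak says only that fragments piled up at a place.

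The peak lists had 23805 and 36302 entries for PPARα, 24505 and 27544 for PPARα+ERα, 17457 and 23302 for PPARα+ERβ. Their summits rested on medians of 35 and 50 fragments (PPARα), 9 and 10 (PPARα+ERα), 27 and 29 (PPARα+ERβ), fewest in the PPARα+ERα group. Below, "fold" is the authors' ratio of the summit to the background around it, which orders peaks within 1 list and is not compared between lists. "Fragments" are the whole number recovered from the deposited fold and p. A region is a run of overlapping peaks of any libraries, and it is called replicated in a group when both libraries of the group have a peak in it.

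Of the 33 members with a RefSeq promoter sequence, MLXIP alone had a promoter (the 250 bases before and 50 after a start site) that met a peak of any library. Its region (chromosome 12, 122078184 to 122078621, build hg38 as for all regions below) had a peak in all 6 libraries, as did 123 of all 92292 regions (0.133%). Its fold was 5.18 and 7.86 for PPARα, 5.71 and 4.96 for PPARα+ERα, 8.78 and 8.45 for PPARα+ERβ. These peaks rested on 49, 84, 39, 36, 84 and 95 fragments in that order, and each stood on a local background 14.5 to 15.4 times the genome-wide level of its library. The summit lay 264 bp upstream of the start site, and the region covered the first 116 of the 300 promoter bases. Among 15812 protein-coding genes with a promoter sequence, 296 (1.87%) met a peak of any library there, and 55 (0.348%), 62 (0.392%) and 67 (0.424%) met a replicated region of PPARα, PPARα+ERα and PPARα+ERβ. None of the 18 sterol members with a promoter sequence met one.

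The bases before 3 start sites are shown because they hold the promoter with a peak in every library (MLXIP), the promoter of the sterol gene with the replicated region nearest to its start site (FDPS), and the member promoter that has the core of the sterol response element, TCACCCCAC, but no peak (SREBF2). Each is the 250 bases before the start site on the plus strand, 5′ to 3′, from RefSeq on GRCh38.p14, at chr12:122078506-122078755, chr1:155308616-155308865 and chr22:41832855-41833104. Capitals mark matches on either strand to the sterol core, to CCAAT (bound by NF-Y) or to GGGCGG (bound by Sp1), and the last match of SREBF2 runs past the bases shown.
MLXIP: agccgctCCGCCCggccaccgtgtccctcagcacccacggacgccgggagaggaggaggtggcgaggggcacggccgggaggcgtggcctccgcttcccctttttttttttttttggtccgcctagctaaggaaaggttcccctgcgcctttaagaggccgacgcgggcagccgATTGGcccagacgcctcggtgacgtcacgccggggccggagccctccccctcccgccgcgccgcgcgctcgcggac
FDPS: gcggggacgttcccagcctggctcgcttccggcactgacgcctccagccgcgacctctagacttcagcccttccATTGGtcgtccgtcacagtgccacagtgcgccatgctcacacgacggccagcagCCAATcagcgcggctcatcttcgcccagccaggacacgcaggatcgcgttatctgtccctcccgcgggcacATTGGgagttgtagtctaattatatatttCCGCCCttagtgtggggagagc
SREBF2: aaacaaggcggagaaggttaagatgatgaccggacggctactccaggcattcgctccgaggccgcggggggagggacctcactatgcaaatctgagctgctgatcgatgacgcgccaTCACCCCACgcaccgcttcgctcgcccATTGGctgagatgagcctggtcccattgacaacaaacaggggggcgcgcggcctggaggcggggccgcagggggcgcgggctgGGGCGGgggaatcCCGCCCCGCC
The part of the MLXIP promoter under the region holds 1 of these matches, an Sp1 motif. The FDPS region ends 546 bp before the FDPS promoter begins, and the nearest peak to the SREBF2 promoter starts 4707 bp from it, in PPARα+ERβ library 2 alone.

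Over the whole of their windows, 29 of the 40 members had a replicated region in at least 1 group and 11 had none. This count over the groups together was not made for all genes, so it cannot be judged against them. A replicated PPARα region was present for 21 members (52.5%), compared with 60.5% of all protein-coding genes. A replicated PPARα+ERα region was present for 11 members (27.5%, all genes 38%) and a replicated PPARα+ERβ region for 13 (32.5%, all genes 46.6%). In the sterol branch these counts were 9, 5 and 7 of 21, and in the fatty acid branch 12, 6 and 6 of 19. When 1 library alone stood for its group, the counts were 32 (without library 1, all genes 83.8%) and 29 (without library 2, all genes 69.2%) for PPARα. They were 31 (all genes 72.7%) and 26 (68.8%) for PPARα+ERα, and 31 (all genes 73.1%) and 26 (62.6%) for PPARα+ERβ, so all genes rose as well. With lists cut to equal length, 14, 10 and 12 members had a replicated region of PPARα, PPARα+ERα and PPARα+ERβ. The shares of all genes were then 40.6%, 28.2% and 42.1%, so the groups lay closer together. The members' windows were about as long as those of other genes, with a median of 124.3 kb against 124.2 kb, but the fatty acid genes were longer (153 kb) than the sterol genes (121.8 kb). Only FDFT1, MVD, ACSS2 and MLXIP had a replicated region in every group, a count likewise not made for all genes. NSDHL, an enzyme of sterol C4 demethylation, had no peak in any library, and 966 of the 19974 protein-coding genes likewise had none.

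**Figure D1:**
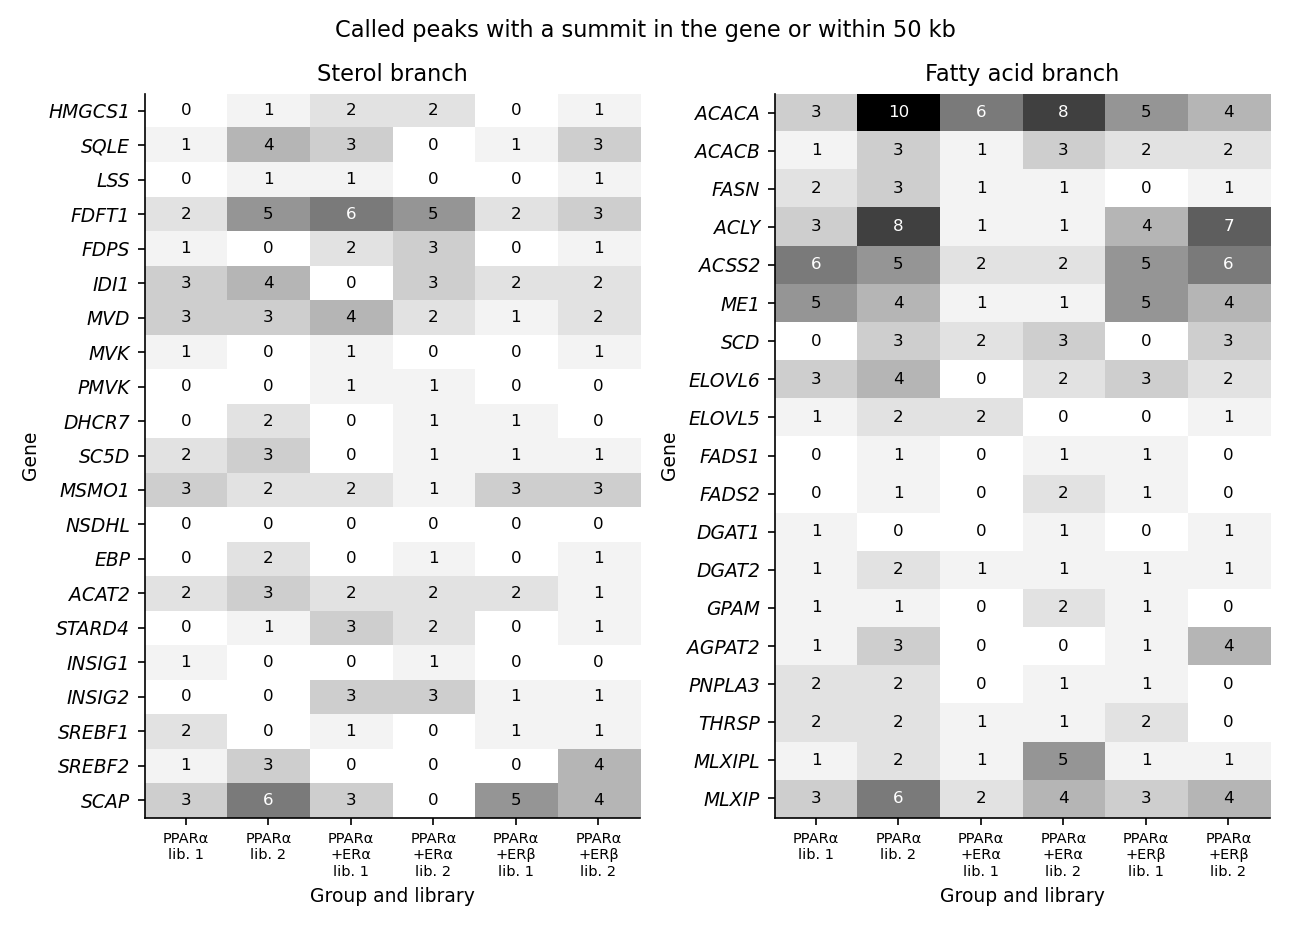
Number of called peaks with a summit in the gene or within 50 kb, for each member (rows) and library (columns), with darker cells for more peaks. ACACA reaches 10 peaks in PPARα library 2 and NSDHL has 0 in all 6 libraries.

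PPARα library 2, the longest list, also had the most peaks in the windows of both branches. The sterol windows, 2.652 Mb after merging, contained 25 and 40 summits for PPARα, 34 and 28 for PPARα+ERα, 20 and 31 for PPARα+ERβ. Per Mb this was 12.3 ± 4.01, 11.7 ± 1.56 and 9.62 ± 2.94 (SD, n = 2), with overlapping groups. The fatty acid windows, 3.245 Mb, contained 36 and 61 summits for PPARα, 21 and 38 for PPARα+ERα, 35 and 41 for PPARα+ERβ, or 14.9 ± 5.44, 9.08 ± 3.7 and 11.7 ± 1.27 per Mb (SD, n = 2), and these groups overlapped as well. The windows of all protein-coding genes held 11.6 ± 3.78, 10 ± 0.82 and 8.18 ± 1.77 per Mb (SD, n = 2). With 2 libraries against 2, the smallest p an exact two-sided permutation test can give is 0.333, so no p is given for any gene.

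**Figure D2:**
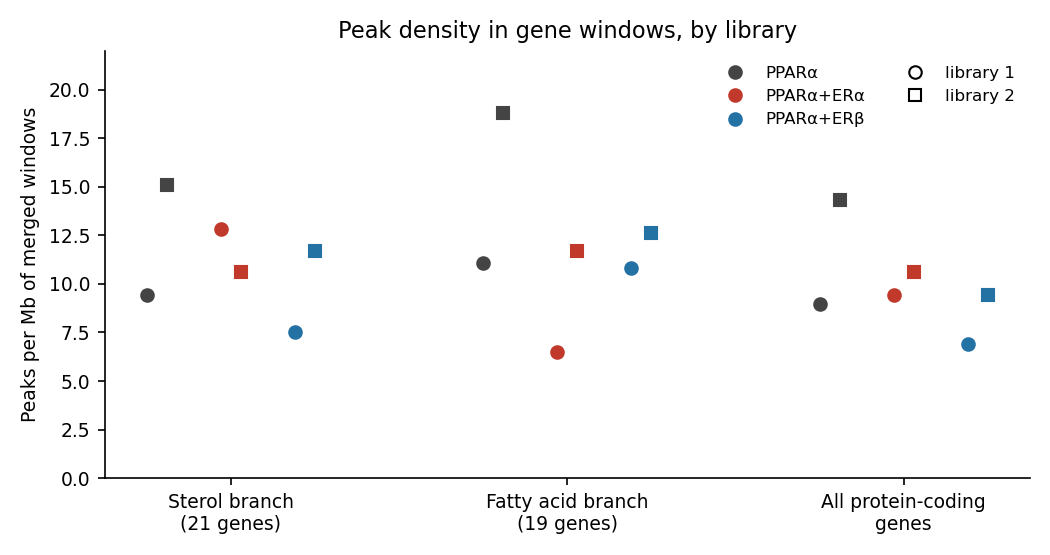
Peaks per Mb of merged windows (vertical axis) in each library, for the sterol branch, the fatty acid branch and all protein-coding genes, coloured by group. PPARα library 2 is the highest point in each of the 3 sets, at 15.1, 18.8 and 14.3 peaks per Mb.

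Setting PPARα+ERα against PPARα asks which sites are called only with the ERα vector and PPT, or only without them. The vector and PPT were given together, so their parts cannot be told apart. At 10 members (25%) a region was called in each PPARα+ERα library but in no PPARα library, beside 36.7% of all protein-coding genes. These were the sterol genes FDFT1, FDPS, MVD, STARD4 and INSIG2 and the fatty acid genes ACACA, FASN, ACSS2, SCD and MLXIPL. The reverse was found at 21 members (52.5%, all genes 58.9%), 9 of the sterol branch and 12 of the fatty acid branch. Regions of both kinds were found at 5 members, FDFT1, MVD, ACACA, FASN and ACSS2, a count not made for all genes. Of the 43 replicated PPARα regions of the members, 40 had no PPARα+ERα peak (93%, all regions 95%). When only peaks on a local background of at most 3 times the genome-wide level of their library were used, a setting chosen after seeing the data, the counts were 7 and 5 members. All genes turned in the same way, to 29.7% and 13.1%. Calling PPARα+ERα-only regions from a single PPARα+ERα library gave 29 members (without library 1, all genes 71.1%) or 26 (without library 2, all genes 67.1%). Calling PPARα-only regions from a single PPARα library gave 32 (all genes 83.1%) or 27 (67.1%).

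For the ERβ vector and DPN, also given together, the same question sets PPARα+ERβ against PPARα. Regions called in each PPARα+ERβ library but in no PPARα library lay at 3 members (7.5%, all genes 10.8%): SCAP, ACLY and MLXIP. The reverse lay at 9 members (22.5%, all genes 25.3%), IDI1, SC5D and SCAP of the sterol branch and ACACA, FASN, ELOVL6, GPAM, PNPLA3 and THRSP of the fatty acid branch. Of the 43 replicated PPARα regions, 16 had peaks in both PPARα+ERβ libraries (37.2%, all regions 37.1%). A further 16 had a peak in 1 of them (37.2%, all regions 32.2%) and 11 in neither (25.6%, all regions 30.7%). Lists cut to equal length gave 5 members on each side (all genes 16.2% and 13.7%). From a single PPARα+ERβ library, 17 (without library 1, all genes 38.8%) or 15 members (without library 2, all genes 28.2%) had a PPARα+ERβ-only region. From a single PPARα library, 28 (without library 1, all genes 66.2%) or 16 (without library 2, all genes 36.7%) had a PPARα-only region. With PPARα library 1 or 2 left out, 6 members each time had a PPARα+ERβ-only region (all genes 15.8% and 19.2%), and without PPARα+ERβ library 2, 15 had a PPARα-only region (all genes 40.7%). Both comparisons use the same PPARα libraries.

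Between the co-transfected groups, 9 members (22.5%, all genes 35.5%) had a region with PPARα+ERα and not PPARα+ERβ, and 12 (30%, all genes 43%) the reverse. From a single PPARα+ERα library the first count was 29 (without library 1, all genes 70.1%) or 24 (without library 2, all genes 66.2%), and from a single PPARα+ERβ library the second was 30 (all genes 70.2%) or 25 (58.9%). SCD, which had a PPARα+ERα region absent from PPARα, was not among the 9, because PPARα+ERβ library 2 had a peak there too. No member region had peaks in both PPARα+ERα and both PPARα+ERβ libraries and in neither PPARα library. Such regions were rare everywhere, 95 of all 92292 (0.103%).

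**Figure D3:**
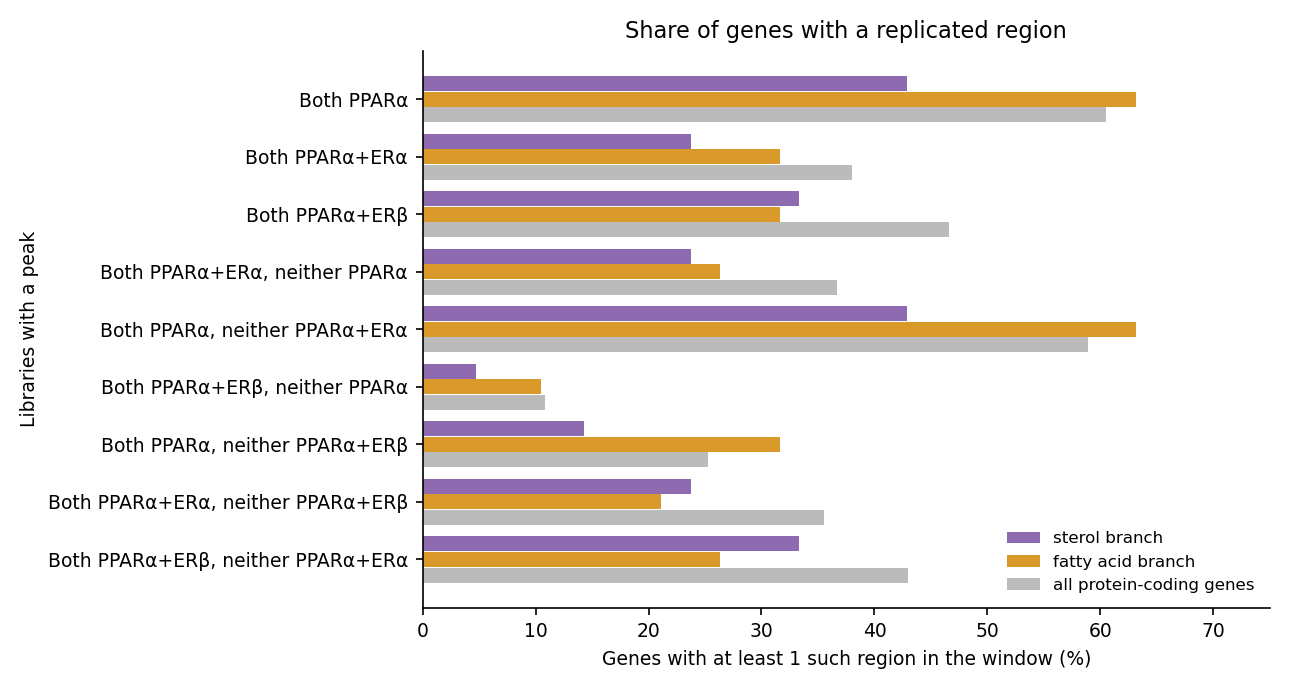
Percent of genes (horizontal axis) with at least 1 region of the kind named on the vertical axis in the window, for the sterol branch, the fatty acid branch and all protein-coding genes. The sterol bar is below that of all genes in each of the 9 rows, while the fatty acid bar is above it in 3 rows, such as 63.2% beside 60.5% for both PPARα libraries.

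Among the sterol enzymes, FDPS and FDFT1 make the last isoprenoid and the first committed sterol intermediates. FDPS, farnesyl diphosphate synthase, had the sterol branch's only replicated region less than 3 kb from an end (start or far end) of its gene (chromosome 1, 155307657 to 155308070), 884 bp before the start site and inside PKLR, the gene of liver pyruvate kinase. Its fold was 6.33 and 3.80 in the PPARα+ERα libraries, on 18 and 11 fragments, and the other 4 libraries had no peak. Within 3 kb of an end, 6.97% of all genes had a replicated PPARα region, 4.61% a PPARα+ERα region and 4.98% a PPARα+ERβ region, against 0, 1 and 0 of the 21 sterol members.

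FDFT1, squalene synthase, had 14 regions, the most of the sterol branch, and 5 of them were replicated. At 11865854 to 11866369 on chromosome 8, inside the cathepsin gene CTSB, the fold was 5.23 in PPARα library 2 and 3.83 and 4.39 with PPARα+ERβ, on 94, 61 and 83 fragments. At 11765167 to 11765529, close to the DNA repair gene NEIL2, only the PPARα+ERα libraries had peaks (fold 7.19 and 7.05, on 9 fragments each). A further PPARα+ERα pair lay in CTSB at 11854113 to 11854505 (fold 4.66 and 5.71). FDFT1 had PPARα+ERα sites and PPARα or PPARα+ERβ sites at different places, and no replicated region of it held peaks of both kinds. The same held for most of the series. Of all replicated PPARα+ERα regions, 95.1% had no PPARα peak and 90.9% no PPARα+ERβ peak. SQLE, the squalene epoxidase, had 1 replicated region, inside the gene (125009793 to 125010132 on chromosome 8), with fold 4.45 and 3.79 for PPARα, 4.44 and 3.96 for PPARα+ERβ and no PPARα+ERα peak. Its peaks rested on 42, 40, 42 and 44 fragments, counts that are not scaled for differences between the libraries. PPARα+ERα library 1 alone had peaks near both ends of SQLE (fold 8.63 and 5.50, on 11 and 10 fragments).

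MVD, mevalonate diphosphate decarboxylase, had the sterol region found in the most libraries. It lay 19670 bp before the start site, inside the transcription factor gene SNAI3 (chromosome 16, 88682380 to 88683567). The fold was 7.55 and 7.15 for PPARα, 13.3 and 11.0 for PPARα+ERα and 15.0 in PPARα+ERβ library 2, while PPARα+ERβ library 1 had no peak. A second MVD region at 88687740 to 88688279 was called with PPARα+ERα alone (fold 9.35 and 18.3, on 12 and 25 fragments). One more, in ZC3H18 at 88604353 to 88604851, had peaks in both PPARα (4.91 and 11.4) and both PPARα+ERβ libraries (4.71 and 4.76). The first of these 3 regions stood on a local background 1.21 to 1.28 times the genome-wide level.

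MSMO1, the sterol C4-methyl oxidase, was the sterol enzyme with the most replicated PPARα+ERβ regions. Inside the gene, at 165338695 to 165339112 on chromosome 4, the fold was 9.46 and 10.0 with PPARα+ERβ, 6.00 in PPARα library 1 and 9.19 in PPARα+ERα library 1, and the second library of the latter groups had no peak. At 165356609 to 165357033 the fold was 4.0 and 3.23 for PPARα and 4.26 and 4.22 for PPARα+ERβ, and at 165368992 to 165369342 it was 2.57 in PPARα library 1 and 3.80 and 3.62 with PPARα+ERβ. Neither of these had a PPARα+ERα peak.

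IDI1, the isopentenyl diphosphate isomerase, had 3 replicated PPARα regions, none with a PPARα+ERα peak. The one with the highest fold (chromosome 10, 1018425 to 1019145), in GTPBP4 and 50 bp from an end of the paralog IDI2, had fold 5.18 and 4.32 for PPARα and 3.88 and 4.53 for PPARα+ERβ. The others lay in WDR37 (1080906 to 1081268; fold 4.14 and 3.41 for PPARα and 2.78 in PPARα+ERβ library 1) and in IDI2 (1019852 to 1020242; fold 2.2 and 2.41, PPARα alone). SC5D, the sterol C5-desaturase, had a pair of regions called with PPARα alone, 38529 bp before its start site (fold 2.55 and 2.71) and 43222 bp beyond its far end (2.57 and 3.45), both on backgrounds at least 30.2 times the genome-wide level. ACAT2, the cytosolic thiolase at the head of the pathway, had 1, within SOD2 and WTAP (159752064 to 159752517 on chromosome 6; fold 2.74 and 3.98 for PPARα and 2.38 in PPARα+ERβ library 2).

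Of the sterol members, HMGCS1, LSS, MVK, PMVK, DHCR7, NSDHL, EBP and INSIG1 had no replicated region in any group. HMGCS1, the synthase that makes HMG-CoA from acetoacetyl-CoA, had 2 peaks in each PPARα+ERα library and 1 each in the second PPARα and PPARα+ERβ libraries. Those of the PPARα+ERα libraries lay at different places. PMVK and DHCR7 each had a peak within 3 kb of an end in PPARα+ERα library 2 alone (fold 9.16 and 8.91, on 12 fragments each). The lanosterol synthase gene LSS and DHCR7, which encodes the dehydrocholesterol reductase, had 3 regions each, the mevalonate kinase gene MVK, the phosphomevalonate kinase gene PMVK and the retention gene INSIG1 had 2 each, and the sterol isomerase gene EBP had 4. At all of these, peaks of 1 library had no counterpart in the other library of the group.

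For the control genes of the sterol pathway the groups are given gene by gene. Of all genes, 60.5% had a replicated PPARα region, 38% a PPARα+ERα region and 46.6% a PPARα+ERβ region. SCAP, the escort protein, had 3 replicated PPARα and 3 replicated PPARα+ERβ regions and no replicated PPARα+ERα region. PPARα+ERα library 1 had 3 peaks in the SCAP window. At 47519135 to 47519762 on chromosome 3 the fold was 8.19 and 9.49 for PPARα and 7.77 and 14.3 for PPARα+ERβ. In PTPN23, at 47381937 to 47382338, it was 3.69 and 6.25 with PPARα alone, and near ELP6, at 47515370 to 47515691, 3.26 and 2.87 with PPARα+ERβ alone. INSIG2 had 1 replicated region, called in both PPARα+ERα libraries only (chromosome 2, 118133078 to 118133474; fold 4.80 and 8.04, on 6 and 11 fragments), and no PPARα peak anywhere in its window. Each PPARα+ERβ library had 1 peak in the INSIG2 window, outside this region. STARD4, a carrier of cholesterol between membranes, had 2 replicated regions, both with PPARα+ERα alone: 1 inside the gene, 6180 bp from the start site (chromosome 5, 111506204 to 111506620; fold 6.49 and 7.70), and 1 upstream (111519563 to 111519912; fold 5.14 and 2.98).

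Of the genes of the sterol regulatory proteins themselves, SREBF2 had a single replicated region, in CENPM, 28434 bp beyond the far end (chromosome 22, 41935440 to 41935889), with fold 2.91 and 3.36 for PPARα and 2.67 in PPARα+ERβ library 2, and no PPARα+ERα peak in its window. SREBF1 had 1, in RAI1, 47015 bp beyond its far end and so near the limit of the window (chromosome 17, 17764066 to 17764487), with fold 14.7 and 9.04 for PPARα+ERβ and 7.84 in PPARα library 1. Neither gene had a peak within 3 kb of an end.

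In the fatty acid branch, the enzymes that supply carbon and reducing power are ACSS2, ME1 and ACLY. ACSS2, the cytosolic acetyl-CoA synthetase, had 5 replicated PPARα regions and 4 replicated PPARα+ERβ regions, none with a PPARα+ERα peak. A region near GGT7 (chromosome 20, 34843358 to 34844545) had fold 3.77 and 4.32 for PPARα and 4.22 and 4.0 for PPARα+ERβ, on 98, 127, 110 and 124 fragments. A region in MYH7B (34969200 to 34969555) had 3.40 and 4.23 for PPARα and 3.59 and 3.33 for PPARα+ERβ. These stood on backgrounds of 42.2 to 43.3 and of 22.9 to 23.5 times the genome-wide level, and their part in the calls was not tested. The 1 replicated PPARα+ERα region lay inside ACSS2 instead, 4403 bp into the gene (34880782 to 34881207; fold 6.04 and 6.49, on a background of 4.23 times in both libraries).

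ME1, the malic enzyme that makes NADPH, had 4 replicated regions, all inside its span of 220.6 kb and none with a PPARα+ERα peak. At 83339976 to 83340369 on chromosome 6 the fold was 10.5 and 13.7 for PPARα and 10.5 and 9.04 for PPARα+ERβ, on 19, 27, 19 and 18 fragments and a background of only 1.54 to 1.56 times the genome-wide level. At 83352148 to 83352597 it was 5.71 and 7.50, and 3.80 and 2.95, and at 83344110 to 83344525 it was 8.84 in PPARα library 2 and 4.12 and 5.27 with PPARα+ERβ. The PPARα and PPARα+ERβ libraries thus shared these ME1 sites.

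ACLY, the ATP citrate lyase that makes cytosolic acetyl-CoA, had an intragenic region called in 5 libraries (chromosome 17, 41883213 to 41883597). Its fold was 7.32 and 6.36 for PPARα, 5.13 in PPARα+ERα library 2, and 7.33 and 7.05 for PPARα+ERβ. Nearby, at 41887142 to 41887520, only the PPARα+ERβ libraries had peaks (6.03 and 5.93), and in ODAD4, at 41963199 to 41963656, PPARα (2.78 and 3.96) and PPARα+ERβ (2.80 and 3.29) did. ACLY, MSMO1, SCAP and ME1 had 3 replicated PPARα+ERβ regions each and ACSS2 had 4, the most among the 40 members.

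Among the chain-building enzymes, ACACA, the acetyl-CoA carboxylase of lipogenesis, was the longest member (321.8 kb) and had the most regions, 24. A replicated region inside the gene (chromosome 17, 37360644 to 37361055) lay 1831 bp upstream of an internal start site, with fold 8.12 and 7.43 for PPARα and 6.07 in PPARα+ERβ library 2, on 54, 55 and 47 fragments. The replicated PPARα+ERα regions of ACACA were elsewhere, inside the gene at 37151052 to 37151679 (6.00 and 5.73) and in the neighbour TADA2A at 37433952 to 37434290 (6.65 and 5.84). ACACB, the carboxylase at the outer mitochondrial membrane, had 1 replicated region (chromosome 12, 109238013 to 109238409), with fold 4.69 and 3.73 for PPARα+ERβ, 3.89 in PPARα library 1 and 2.36 in PPARα+ERα library 2.

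FASN, the fatty acid synthase, had its PPARα and PPARα+ERα peaks at different places. This was usual, as 95% of all replicated PPARα regions had no PPARα+ERα peak. A region 6035 bp beyond one end (chromosome 17, 82072003 to 82072600) was called with PPARα+ERα alone, with fold 9.99 and 9.10 on 14 and 13 fragments. A pair of regions in the neighbour CCDC57 was called with PPARα, at 82111004 to 82111392 (5.04 and 8.94) and at 82115748 to 82116117 (5.04 and 4.77, with 4.10 in PPARα+ERβ library 2). The PPARα peaks there rested on 7 to 14 fragments at the genome-wide background. FASN had no peak inside its span in any library.

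Of the desaturases and elongases, SCD, the stearoyl-CoA desaturase, had 1 replicated region, inside the gene (chromosome 10, 100358604 to 100359125). Its fold was 7.33 and 6.50 for PPARα+ERα and 5.90 in PPARα+ERβ library 2, on 10, 9 and 10 fragments, with no PPARα peak. ELOVL6, which elongates palmitate, had 3 replicated PPARα regions, none with a PPARα+ERα peak. One near EGF (chromosome 4, 110016085 to 110016500; fold 3.50 and 4.90), and one upstream of the gene (110242782 to 110243121; 4.05 and 5.15) were called with PPARα alone. ELOVL5, a polyunsaturated fatty acid elongase, had 1, far beyond the gene (chromosome 6, 53234974 to 53235364), with fold 5.66 and 6.56 for PPARα and 5.39 in PPARα+ERβ library 2. FADS1 and FADS2, the adjacent desaturase genes of polyunsaturated fatty acid synthesis, share most of their windows and had 3 and 4 regions, none replicated.

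Among the genes of triglyceride assembly, PNPLA3, a lipase of hepatocyte lipid droplets, had a region 1666 bp beyond an end (chromosome 22, 43948999 to 43949352) called with PPARα alone (fold 4.13 and 5.04, on 27 and 37 fragments). A PNPLA3 region of higher fold lay 7546 bp from the other end (43915930 to 43916417), with fold 7.78 and 13.3 for PPARα and 5.07 in PPARα+ERβ library 1. GPAM, the mitochondrial glycerol-phosphate acyltransferase, had an intragenic region called with PPARα alone (chromosome 10, 112203935 to 112204270; 2.98 and 4.42, on backgrounds of 40.5 and 38.6 times). DGAT2, a diacylglycerol acyltransferase, had 1 with fold 3.77 and 5.23 for PPARα and 2.58 in PPARα+ERβ library 1 (chromosome 11, 75759692 to 75760131). AGPAT2, which acylates lysophosphatidic acid, had 1 near DIPK1B (chromosome 9, 136711195 to 136711789), with 3.25 and 4.70 for PPARα+ERβ and 6.09 in PPARα library 2. DGAT1, the other diacylglycerol acyltransferase, had a single region, with a peak in 1 library of each group.

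The control genes of the fatty acid branch were THRSP, MLXIPL and MLXIP. THRSP, the thyroid hormone responsive lipogenic factor Spot 14, had a region 3224 bp past its start site (chromosome 11, 78066783 to 78067139), where the read-through gene NDUFC2-KCTD14 also runs, with fold 5.66 and 10.4 for PPARα and 3.85 in PPARα+ERβ library 1. A second region, in ALG8 (78113720 to 78114118; 2.57 and 3.56), was called with PPARα alone. MLXIPL, the ChREBP gene, had its 1 replicated region with PPARα+ERα alone, inside the gene and 6008 bp from an end (chromosome 7, 73599071 to 73599384; 5.33 and 6.02, on 15 and 18 fragments). MLXIP had, beside the promoter region, one 9998 bp before the start site (122068478 to 122068813; 3.47 and 4.90 for PPARα and 3.98 in PPARα+ERβ library 1) and an intragenic one with PPARα+ERβ alone (122113579 to 122113998; 3.93 and 4.72).

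Most replicated regions were far from the ends of the members. Of 66, 20 lay inside the member's span (4 of 28 in the sterol and 16 of 38 in the fatty acid branch), 23 had a summit over another protein-coding gene, and 34 were closer to an end of another protein-coding gene than to one of the member, so the window does not assign a site to a gene. Within 3 kb of an end the members had 21 regions, 17 of them in 1 library only, and 13 of those 17 were in PPARα+ERα library 1 (5) or 2 (8). At any distance, 62.5% of member regions and 60.1% of all regions were in 1 library only. The other region counts given so far in this paragraph were not made for all genes, so whether they are particular to the members cannot be judged. The replicated regions within 3 kb of an end were at FDPS, MLXIP, PNPLA3 and THRSP. In this narrow area 1 member, FDPS, had a region with PPARα+ERα and not PPARα (all genes 4.37%), and 2, PNPLA3 and THRSP, the reverse (all genes 6.61%). No member had one with PPARα+ERβ and not PPARα (all genes 0.906%), and PNPLA3 alone the reverse (all genes 1.79%). FDPS alone had one with PPARα+ERα and not PPARα+ERβ (all genes 4.09%), and no member the reverse (all genes 4.26%).

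**Figure D4:**
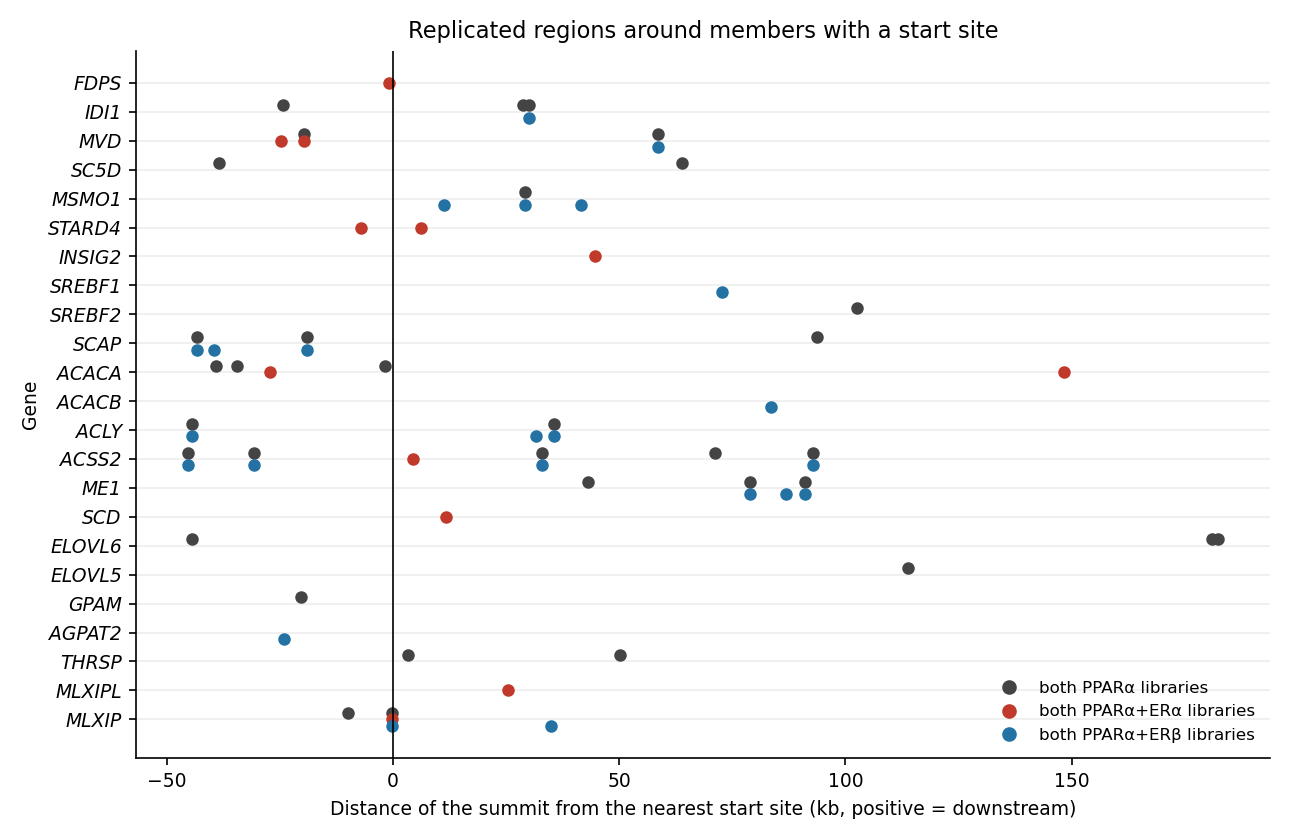
Distance in kb from the nearest start site to the summit (horizontal axis) of replicated regions, for the 23 members (rows) with both a RefSeq start site and such a region, 53 regions in all, coloured by the group in which both libraries had a peak. The MLXIP region at 264 bp and the FDPS region at 884 bp are the nearest to a start site.

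The fragments of called peaks, and the local background at the places called, differed between the groups at the members as they did over the lists. At a single region the background multiple could be similar in all libraries with a peak. It was 14.5 to 15.4 at the MLXIP promoter region and 1.78 to 1.80 at the intragenic ACLY region called in 5 libraries. At the ACLY region in ODAD4 it was 36.2 to 51.5. The genome-wide level of the libraries differed too. It was 0.588 and 0.677 fragments for PPARα, 0.39 and 0.419 for PPARα+ERα, and 0.585 and 0.709 for PPARα+ERβ. The part of read depth in these differences was not tested. Peaks in replicated member regions had a median of 47 fragments (6 to 145) on a background of 18.3 times the genome-wide level for PPARα. For PPARα+ERα it was 13.5 fragments (6 to 39) on 2.57 times, and for PPARα+ERβ 35 fragments (8 to 124) on 13.5 times. Of 43 replicated PPARα regions, 9 (20.9%, all regions 12.6%) stood on a background of at most 3 times in both libraries, as did 8 of 15 PPARα+ERα regions (53.3%, all regions 78.1%) and 6 of 26 PPARα+ERβ regions (23.1%, all regions 20.7%). From such low-background peaks alone, 6, 7 and 5 members had a replicated region of PPARα, PPARα+ERα and PPARα+ERβ (all genes 15.6%, 30.5% and 14%). The share of regions found in either library that were found in both was 36.1%, 14.2% and 25.7% at the members, and 41.4%, 20.5% and 33.4% over all regions.

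**Figure D5:**
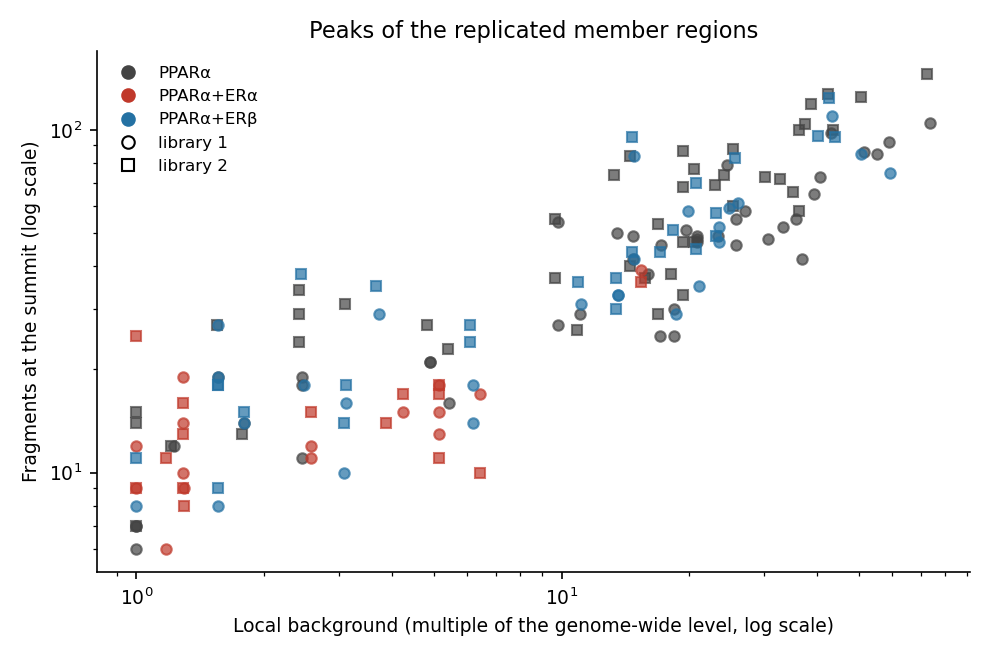
Fragments at the summit (vertical, log scale) against the local background as a multiple of the library's genome-wide level (horizontal, log scale), 1 point per library for each replicated member region. PPARα+ERα points stay at or below 39 fragments and 15.4 times, and PPARα points reach 145 fragments and 73.6 times.

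A second list of 40 genes of the same pathways, chosen by function, had shares of genes nearer to those of all genes than the members in each branch and group. Of 18 other sterol genes, 12 (66.7%) had a replicated PPARα region, 5 (27.8%) a PPARα+ERα region and 10 (55.6%) a PPARα+ERβ region, and of 22 other fatty acid genes 13 (59.1%), 9 (40.9%) and 12 (54.5%). Within 3 kb of an end, CYP51A1, the lanosterol demethylase, had fold 8.22 and 7.73 for PPARα and 8.54 and 6.74 for PPARα+ERβ (chromosome 7, 92112833 to 92113203). ACSL3, an acyl-CoA synthetase, was called with PPARα+ERα alone 517 bp before its start site (chromosome 2, 222860249 to 222860671; 9.19 and 7.26), and so was the desaturase gene SCD5 (chromosome 4, 82796269 to 82796603; 6.48 and 7.05).

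The promoter letters of the members were read as a description. Only the exact letters given were searched, so a variant of a motif was not counted and its absence here does not mean that a promoter lacks such an element. Members without a promoter sequence, among them SQLE, FDFT1 and FASN, were not searched. CCAAT was found on either strand in 14 of 18 sterol promoters (77.8%) and 10 of 15 fatty acid promoters (66.7%), compared with 42.1% of 15812 protein-coding genes. GGGCGG was found in 94.4% and 86.7%, compared with 64.2%. The sterol response core TCACCCCAC was found in SREBF2 alone (5.56%, 0% and 0.601%). The half-site AGGTCA, which PPARα recognises as a pair, was found in DHCR7, ACACA and ELOVL6 (5.56% and 13.3%, all genes 15.2%), and neither a DR1 pair of it in the same direction with 1 base between, nor the estrogen response element (GGTCA and TGACC with 3 bases between), was found in a member (all genes 0.0316% and 0.0506%). The E-box CACGTG was found in 22.2% and 6.67%, compared with 10.9%. Genes with several start sites count once if any promoter holds the letters, and the search for AGGTCA alone also finds each repeat of a DR1.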

How the data were processed

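Chromatin precipitated with a PPARα antibody was sequenced from HepG2 cells, with 2 libraries in each of 3 groups. Per the submitters' processing notes the tools included MACS2 2.2.7.1, Bowtie 1.0.1 and Trim Galore 0.6.4, with DiffBind 2.16, HOMER 4.11 and ChIPseeker 1.18.0, and the builds hg38 and GRCh38.p13. The role of each, the control and the threshold are not given in the sources used here. The authors deposited 1 peak list per library, not pooled. The deposited score is the −log10 q multiplied by 10 without its decimals. The deposited fold is a ratio of a summit to its local background. The deposited −log10 p and −log10 q values belong to the summit.

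From the deposited fold and −log10 p, the fragments at a summit and the background around it were worked back, and for 100% of peaks a whole number gave the −log10 p within 0.001. A library's genome-wide level is its lowest background. Total read depth is not given in the lists, so a peak that is missing may be a matter of depth. Peaks overlapping by 1 bp or more were merged into regions. Coordinates are those of the files (hg38), counted from 1. Genes and promoters came from RefSeq tables on GRCh38.p14, and 33 of 40 members had a promoter sequence. SQLE, DGAT1, FASN, PNPLA3, ACAT2, DGAT2 and FDFT1 had none there.

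Members and lists were chosen with earlier results of these data known, so counts carry no p. They stand beside the same count over all protein-coding genes where that was made. Members with a replicated region were described with up to 3 regions each, first those within 3 kb of an end of the gene, then by the lower within-list percentile of −log10 q. Other pathway genes were named only for replicated regions within 3 kb of an end. One such gene is not reported here. Peaks inside a single library near an end of SQLE, PMVK and DHCR7 were picked after their values were seen. The alternatives were a window of 10 kb, 3 kb around either end, a −log10 q of at least 3, lists of equal length, 50% overlap, each library left out, SREBF1 moved to the fatty acid branch, and low background only. Computation in Python 3.11.15 used SciPy 1.17.1, NumPy 2.4.6, pandas 2.3.3 and, for plots, Matplotlib 3.10.9, and the steps were tested on simulated data.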

Additional observations from a re-analysis of the deposited data

How the results depend on the processing

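The 9 counts of members stayed within 1.5 times of their value with a −log10 q of at least 3 and with 50% overlap. With a window of 10 kb, 12 members had a replicated PPARα region (all genes 34.1%) and 8 a PPARα+ERβ region (25.3%), 11 had PPARα without PPARα+ERα (32.9%), 2 PPARα without PPARα+ERβ (13.1%), and 6 PPARα+ERβ without PPARα+ERα (22.8%). Within 3 kb of an end, 3, 2 and 1 members had a replicated region of PPARα, PPARα+ERα and PPARα+ERβ (all genes 6.97%, 4.61% and 4.98%). There, 1 had PPARα+ERα without PPARα and 2 the reverse, 0 PPARα+ERβ without PPARα and 1 the reverse, 1 PPARα+ERα without PPARα+ERβ and 0 the reverse (all genes, in this order, 4.37%, 6.61%, 0.906%, 1.79%, 4.09% and 4.26%). Lists of equal length gave 5 members for PPARα+ERβ without PPARα and 5 for the reverse (all genes 16.2% and 13.7%). They also gave 14, 10 and 12 members with a replicated region of PPARα, PPARα+ERα and PPARα+ERβ (all genes 40.6%, 28.2% and 42.1%). PPARα without PPARα+ERα was then found at 14 members and the reverse at 9 (all genes 40% and 27.7%). With low background only, chosen after seeing the data, 6, 7 and 5 members had a replicated region (all genes 15.6%, 30.5% and 14%), 5 had PPARα without PPARα+ERα (13.1%), 0 PPARα+ERβ without PPARα (3.53%), 1 PPARα without PPARα+ERβ (3.28%), and 4 PPARα+ERβ without PPARα+ERα (10.2%). Leaving out 1 library makes a single list decide for its group, which loosens each call by construction. The ranges were 29 to 32 for PPARα, 26 to 31 for PPARα+ERα and 26 to 31 for PPARα+ERβ. They were 10 to 29 for PPARα+ERα without PPARα and 21 to 32 for the reverse, 6 to 17 for PPARα+ERβ without PPARα and 12 to 28 for the reverse, and 9 to 29 for PPARα+ERα without PPARα+ERβ and 12 to 30 for the reverse. With SREBF1 in the fatty acid branch, the PPARα+ERβ counts became 6 sterol and 7 fatty acid members. No paired analysis was possible because the labels number no replicates, and the library numbers 1 and 2 used here are only names given in accession order. Read depth is not given in the lists, so what it limits could not be measured.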
